A study of Mus musculus with 2 samples.

Results

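Insulin-like growth factor 1 (Igf1), its receptor (Igf1r) and the IGF binding proteins Igfbp4 and Igfbp5 were followed in microglia of the demyelinating mouse brain. These 4 genes were taken by symbol from the 27998 gene rows of the count matrices, and each symbol matched 1 row. Microglia, the resident macrophages of the brain, were sorted from the medial and the lateral corpus callosum, the large white matter tract joining the hemispheres, and profiled by droplet-based 3′ single-cell RNA sequencing. The mice were of the C57Bl6 strain, carried the genotype given as CX3CR1, and were fed cuprizone, a copper chelator that kills oligodendrocytes, for 4 weeks. Both groups share this strain, genotype and diet, and differ only in the region sampled, with 1 library per region. Untreated mice are not part of the comparison, so levels cannot be set against a healthy corpus callosum. How many mice were pooled, their age, what the CX3CR1 allele is and how the cells were gated were not stated in the labels.

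IGF-1 is a secreted peptide that signals through the receptor tyrosine kinase IGF1R to the PI3K-AKT-mTOR and RAS-MAPK pathways. In white matter it promotes the survival and maturation of oligodendrocytes and their precursors, and activated microglia are one of its known sources. In extracellular fluid most IGF is held by binding proteins, which extend its life and control its access to the receptor, and which proteases such as PAPP-A cut to release it.

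Barcodes with at least 2400 unique molecular identifiers (UMIs, each marking 1 captured transcript) and at most 10% mitochondrial UMIs were taken as cells. This gave 2131 medial and 2308 lateral cells, with a median of 10732 and 9694 UMIs per cell and 23442512 and 23047682 UMIs in all. A total of 7 barcodes were called in both libraries. Microglial markers took 106 of every 10000 UMIs in medial and 110 in lateral cells, with 10 of 10 markers detected in each library. The other 15 marker lists were low, at no more than 1.201 medial and 1.04 lateral per 10000 UMIs (endothelial markers). Monocyte markers stood at 0.925 and 0.988, border macrophage markers at 0.762 and 0.617, and oligodendrocyte markers at 0.715 and 0.712 per 10000. The immediate early and dissociation list, genes that tissue dissociation is known to induce, was higher in the medial library, at 136 against 106 per 10000 UMIs. Levels are given as counts per 1000000 cell UMIs (CPM), and intervals are exact 95% intervals for counting error alone. No difference between the regions has a replicate check, since each has 1 library, and region cannot be told apart from library or from how many cells of each state were captured.

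Igf1 (ENSMUSG00000020053, chromosome 10, 87858265 to 87937042, plus strand, GRCm38), the ligand, was detected in most cells of both libraries and was higher in the lateral one. Summed over cells it had 10190 medial and 12359 lateral UMIs. The level was 435 CPM in medial cells (426 to 443) and 536 CPM in lateral cells (527 to 546), so the intervals did not overlap. The log2 ratio of medial over lateral was -0.30 (-0.34 to -0.26), a lateral level 1.23-fold higher (1.202 to 1.27). Across the 9843 genes with at least 100 UMIs, 7.49% were past a fold of 1.2 toward the lateral library and 7.42% toward the medial one, with a median log2 ratio of -0.04. Among the 106 genes with UMI totals like those of Igf1, 0 lay further toward the lateral side, and 7 lay at least as far from equal in either direction. The lateral level was the higher one in each of 5 classes of cell depth, with log2 ratios between -0.38 and -0.17. At the lower limit for cells, barcodes with 2400 to 3000 UMIs had 430 CPM medial and 486 CPM lateral, and those just outside it, with 1800 to 2400 UMIs, had 384 and 452 CPM.

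Per cell, Igf1 varied widely. At least 1 Igf1 UMI was found in 1819 medial cells (85.4%) and 2018 lateral cells (87.4%). The median medial cell had 3 UMIs and the median lateral cell 4, the 90th percentile was 11 and 13, and the highest cell had 36 and 37. After every cell was thinned to 3869 UMIs, which left 2000 medial and 2077 lateral cells, Igf1 was found in 68.3% of medial cells (66.2% to 70.3%) and 74.9% of lateral cells (73.0% to 76.8%). Cells with at least 3 UMIs at that depth made up 24.3% and 33.2%. The lateral excess was therefore seen both in how many cells carried Igf1 transcripts and in how many carried several. It was not seen in the few cells with at least 10 UMIs at that depth, which were 14 medial (0.700%, 0.383% to 1.17%) and 8 lateral cells (0.385%, 0.166% to 0.758%).

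**Figure D1:**
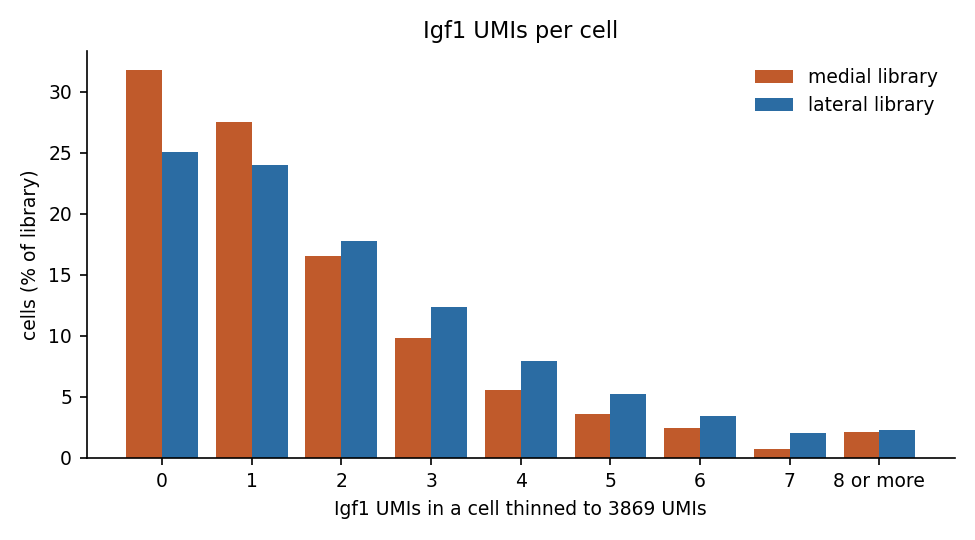
Igf1 UMIs per cell after thinning each cell to 3869 UMIs, with the share of cells of each library (%) on the vertical axis. The medial library has more cells at 0 and 1 UMI, and the lateral library has more at each number from 2 to 7, with 24.3% of medial and 33.2% of lateral cells at 3 or more.

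Igf1 was spread more unevenly over cells than most genes of its abundance. The tenth of cells with most Igf1 UMIs held 35.0% of the medial and 33.0% of the lateral Igf1 UMIs, and the 316 medial and 427 lateral cells with at least 10 UMIs held 45.4% and 50.5%. At the thinned depth the variance over the mean was 2.26 medial and 2.07 lateral. The median of genes with a like mean was 1.16 over 126 genes and 1.18 over 108 genes, and 11 such genes in each library were above Igf1. Free RNA also carried Igf1. Barcodes with 1 to 100 UMIs held it at 366 CPM medial and 460 CPM lateral, so that the cell level was 1.19 and 1.17 times the free level. The part of free RNA in the share of cells with a single Igf1 UMI was not tested. The annotated antisense gene Igf1os, which overlaps Igf1 over 5117 bases, had 3 medial and 14 lateral UMIs, and whether the counting used strand was not stated in the labels.

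Cells were then divided, within each library, into a lower, a middle and an upper range by their thinned UMIs of a gene list, with Igf1 itself left out of every list. Such ranges are parts of a continuous score and not cell types. Igf1 was highest where disease-associated genes, those microglia induce around damage, were high and homeostatic genes, those of undamaged brain, were low. Over the disease-associated list it went from 336 to 433 and 546 CPM in medial cells and from 462 to 526 and 635 CPM in lateral cells. The upper range thus stood 1.63-fold above the lower in the medial and 1.38-fold above it in the lateral library. Over the homeostatic list it went from 604 to 407 and 294 CPM in medial cells and from 683 to 539 and 391 CPM in lateral cells, 2.05-fold and 1.75-fold higher in the lower range. None of these neighbouring ranges overlapped in their counting intervals.

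**Figure D2:**
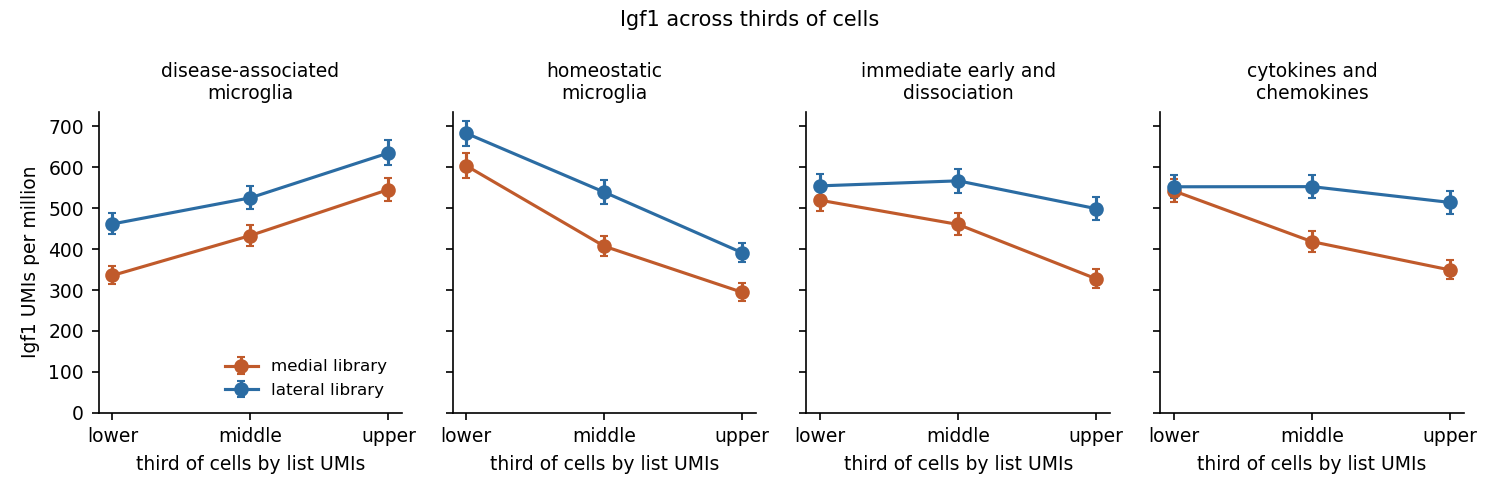
Igf1 level (CPM, with exact 95% Poisson intervals) in the lower, middle and upper range of thinned cells by UMIs of a gene list, for each library. Igf1 is higher with more disease-associated UMIs, lower with more homeostatic UMIs in both libraries, and lower with more immediate early or cytokine UMIs mainly in the medial library.

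Igf1 was lower in cells rich in immediate early transcripts, more so in the medial than in the lateral library. Medial cells went from 519 CPM in the lower range to 460 and 328 CPM, a fold of 1.59 between lower and upper. Lateral cells stood at 555, 567 and 499 CPM, a fold of 1.11. The cytokine and chemokine list showed a like picture, with 542, 418 and 349 CPM in medial cells against 552, 553 and 514 CPM in lateral cells. Ccl3, Ccl4 and Cxcl2 stand in both lists. Jun and Rhob stand in both the immediate early and the homeostatic list. When cells of both libraries were divided at the same number of immediate early UMIs, the lateral level of Igf1 was 1.03 times the medial one in the lower range, 1.23 times in the middle and 1.40 times in the upper range. The upper range held 38.5% of medial and 27.4% of lateral cells. Without it the lateral excess of Igf1 was 1.14-fold (log2 ratio -0.18, -0.26 to -0.11) and no longer past 1.2. This division was chosen after the values were seen, and whether dissociation had a part in the regional difference was not tested.

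The remaining lists differed in direction and size. From the upper to the lower range of MHC class II UMIs, antigen presentation genes, Igf1 was 1.29-fold higher in medial and 1.18-fold higher in lateral cells. For interferon-response genes the same fold was 1.06 and 1.09. Over glycolysis and hypoxia genes the upper range was 1.19-fold and 1.12-fold above the lower. Cells with at least 3 proliferation UMIs from at least 2 genes, 443 medial and 550 lateral cells, had 0.861 and 0.868 times the Igf1 of the others. Over growth and repair factors Igf1 was 1.96-fold and 1.52-fold higher in the upper range, and this rested on Spp1, since in unthinned cells the fold without it was 0.949 and 0.984. Cells with a higher mitochondrial share had less Igf1 in both libraries, at 464, 437 and 398 CPM from the lower to the upper range in medial cells and 572, 525 and 503 CPM in lateral cells.

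The genes most like Igf1 across cells were iron storage, lysosomal and disease-associated genes. Likeness was the Pearson correlation of log2(thinned UMIs + 1) across the cells of 1 library, and 5452 genes were ranked by the lower of the 2 libraries' r. The cells of a library share its depth, its free RNA and the closed sum of UMIs, so these r values are descriptions. The ferritin light chain Ftl1 stood first (r = 0.37 medial, 0.43 lateral). It was followed by Lgals3, a galectin (0.31 and 0.34), Gpnmb, a glycoprotein of lipid-laden macrophages (0.36 and 0.29), Spp1, osteopontin (0.30 and 0.26), and Fabp5, a fatty acid binding protein (0.29 and 0.24). The ferritin heavy chain Fth1, the cathepsin Ctsb, the inhibitory receptor Lilrb4a, the Fc receptor gamma chain Fcer1g and the tetraspanin Cd63 completed the first 10, with r from 0.21 to 0.29. The median gene had r = -0.0071 and -0.006, and the 95th percentile was 0.052 and 0.051. Likeness within a library did not fix the side between libraries. Gpnmb stood at 569 CPM medial and 444 CPM lateral, a log2 ratio of 0.36, on the side opposite to Igf1. Fth1 was also on that side (0.08). The others of the first 10 lay on the side of Igf1, at -0.25 to -0.04, beside a median of -0.04 over all genes.

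The genes least like Igf1 were mostly homeostatic. The ADP receptor P2ry12 was lowest (r = -0.27 and -0.30), then the matricellular gene Sparc (-0.25 and -0.24), Selplg, a selectin ligand (-0.23 and -0.26), Ly86, a partner of an innate immune receptor (-0.23 and -0.26), and the lectin Siglech (-0.22 and -0.21). P2ry12 stood at 501 CPM in the 1185 medial cells with 0 to 1 thinned Igf1 UMIs, at 338 CPM in the 330 cells with 2, and at 231 CPM in the 485 cells with 3 to 13. In lateral cells it went from 603 to 410 and 307 CPM over the same classes. Gpnmb went the opposite way, from 340 to 552 and 1039 CPM in medial cells and from 236 to 434 and 667 CPM in lateral cells. Of 29 disease-associated genes, r with Igf1 was above 0 in both libraries for 20 and below 0 in both for 6. It was below 0 in both libraries for 24 of 25 homeostatic genes, 14 of 14 proliferation genes and 7 of 7 MHC class II genes. The same held for 17 of 25 immediate early genes, 11 of 17 cytokine genes and 11 of 17 interferon-response genes. Of all 5452 genes, 41.3% were below 0 in both libraries and 23.7% above it.

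**Figure D3:**
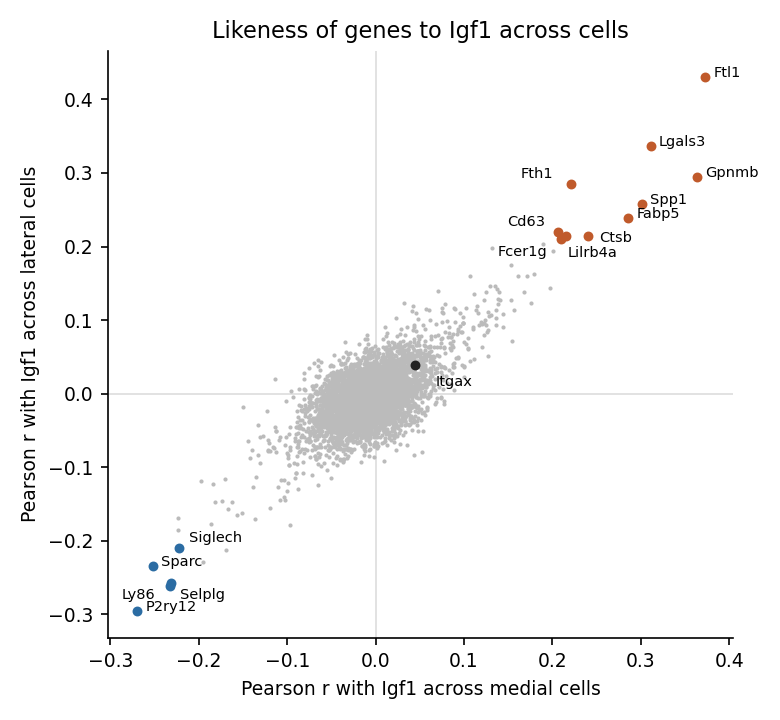
Pearson r with Igf1 across medial cells (horizontal) and lateral cells (vertical) for 5452 genes, each a point. The 10 genes most like Igf1, led by Ftl1, and the 5 least like it, among them P2ry12, are labelled, and Itgax (black) has an r of 0.04 in both libraries, above the median gene and below the 95th percentile.

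Itgax, the integrin alpha chain that encodes CD11c and marks a microglial subset known as a source of IGF-1, was only weakly tied to the level of Igf1. It had 822 medial and 489 lateral UMIs, in 20.9% and 13.99% of cells. Its level was 35.1 and 21.2 CPM, a log2 ratio of 0.72 (0.56 to 0.89) toward the medial library, the reverse of Igf1. Thinned cells with an Itgax UMI had 1.10 times the Igf1 of other cells in the medial library (0.991 to 1.22) and 1.09 times in the lateral one (0.977 to 1.22), intervals that include 1. Igf1 was found in more of these cells than of the others, in 74.7% against 67.4% in the medial and 82.8% against 74.3% in the lateral library. Its r with Igf1 was 0.04 in both libraries, at rank 224 of 5452. Itgax had a UMI in only 11.45% of medial and 7.56% of lateral thinned cells, and such sparse counts hold r down. Spp1 had one in 95.4% and 93.5%, so the r values of the 2 genes are not on a like footing. Spp1, in contrast, moved with Igf1 within each library and lay on the same side between them, at 4548 CPM medial and 5396 CPM lateral, a log2 ratio of -0.25.

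Igf1r (ENSMUSG00000005533, chromosome 7, 67952827 to 68233668, plus strand), the receptor, was near equal in the 2 libraries. It had 450 medial and 452 lateral UMIs, in 381 cells (17.9%) and 393 cells (17.0%), with at most 4 in a cell. The level was 19.2 CPM (17.5 to 21.1) and 19.6 CPM (17.8 to 21.5), and the log2 ratio of -0.03 (-0.22 to 0.16) included 0. The sign turned to 0.08 after thinning, when 8.20% and 7.66% of cells had a UMI. Free RNA held Igf1r at 10.9 and 13.2 CPM, so that cells had 1.75 and 1.49 times the free level. Over the disease-associated list Igf1r was flat in medial cells, at 22.3, 21.9 and 22.1 CPM, and stood at 23.8, 19.8 and 19.1 CPM in lateral cells with overlapping intervals. Over the homeostatic list it stood at 23.3, 22.4 and 20.6 CPM in medial cells and 24.7, 23.9 and 13.98 CPM in lateral cells. The log2 ratio of upper over lower was -0.18 (-0.74 to 0.38) and -0.82 (-1.44 to -0.22). In unthinned cells, divided by the list's share of UMIs, the lower range stood 1.29-fold (1.02 to 1.64) and 1.33-fold (1.06 to 1.68) above the upper. No gene had a high r with Igf1r across cells, and counts as sparse as those of Igf1r hold r down. Its first 5 were Vat1, Zfp644, Trip12, E2f1 and Npm3, none with an r above 0.07. The 95th percentile of r with Igf1r was 0.039 in each library.

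Ligand and receptor were found together somewhat more often than their separate frequencies give. Thinned cells with both Igf1 and Igf1r numbered 123 medial and 129 lateral, where 112 and 119 would be found if they were unrelated. Cells with an Igf1r UMI had 1.43 times the Igf1 of other cells in the medial library (1.29 to 1.60) and 1.09 times in the lateral one (0.979 to 1.22).

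Igfbp4 (ENSMUSG00000017493, chromosome 11, 99041244 to 99054392, plus strand), a binding protein that mostly restrains IGF action until PAPP-A cuts it, was higher in the medial library in the summed UMIs. It had 257 UMIs in 215 medial cells (10.1%) and 204 UMIs in 172 lateral cells (7.45%), with at most 4 in a cell. The level was 11.0 CPM (9.66 to 12.4) and 8.85 CPM (7.68 to 10.2), and these intervals overlapped. The log2 ratio was 0.31 (0.04 to 0.58), a medial level 1.24-fold higher (1.03 to 1.496). The difference was not past 1.2 after thinning (log2 ratio 0.15, -0.29 to 0.59), when each cell counted alike (0.17), or without the upper range of immediate early UMIs (0.20). It also varied with cell depth. From the shallowest to the deepest of 5 classes of cells the log2 ratio was -0.38, 0.27, -0.10, 0.43 and 0.59, and the interval excluded 0 in the deepest class alone (0.12 to 1.06). The free level was 7.52 and 9.60 CPM, so cells had 1.46 times the free level in the medial (1.01 to 2.16) and 0.922 times in the lateral library (0.654 to 1.33).

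At this level Igfbp4 cannot be read as expressed from the share of cells alone. No cell type that lacks Igfbp4 was called here, so Mbp, a myelin transcript of oligodendrocytes, served for comparison. It was found in 11.8% of medial and 11.1% of lateral cells, at 11.6 and 12.5 CPM in cells and 10.7 and 10.6 CPM in free RNA. Unlike Mbp, Igfbp4 differed widely between cells of different state. For these scarce genes all cells were used at full depth and divided by the share of their UMIs in a list. From the lower to the upper range of disease-associated UMIs it went from 18.3 to 10.1 and 4.68 CPM in medial cells and from 15.5 to 8.17 and 4.34 CPM in lateral cells. The lower range was 3.92-fold above the upper in the medial (2.70 to 5.83) and 3.57-fold above it in the lateral library (2.43 to 5.36). The same fold for Mbp was 1.10 (0.804 to 1.497) and 1.26 (0.941 to 1.68). Apoe, which makes up much of that list, did not carry the order alone, since without it the fold for Igfbp4 was 2.83 and 3.48. Over the homeostatic list Igfbp4 stood at 10.4, 11.04 and 11.5 CPM in medial cells and 9.60, 9.28 and 7.78 CPM in lateral cells, so cells with few disease-associated UMIs had more of it and cells with many homeostatic UMIs did not.

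Igfbp4 was higher in cells with proliferation transcripts, where Igf1 was lower. Over the proliferation list it went from 7.48 to 9.62 and 15.2 CPM in medial cells and from 5.82 to 7.79 and 12.3 CPM in lateral cells. Thinned cells with at least 3 proliferation UMIs from 2 genes had 19.3 CPM against 9.79 CPM in other medial cells, and 15.0 against 9.14 CPM in lateral cells. These were folds of 1.97 (1.24 to 3.06) and 1.65 (1.03 to 2.59). Mbp was near level between the lower and upper proliferation range, at 11.4 and 12.7 CPM in medial cells and 12.06 and 12.1 CPM in lateral cells. Thinned cells with an Igfbp4 UMI had 0.763 and 0.828 times the Igf1 of other cells. Cells with both genes numbered 45 medial and 60 lateral, where 56.0 and 61.4 would be found if they were unrelated.

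**Figure D4:**
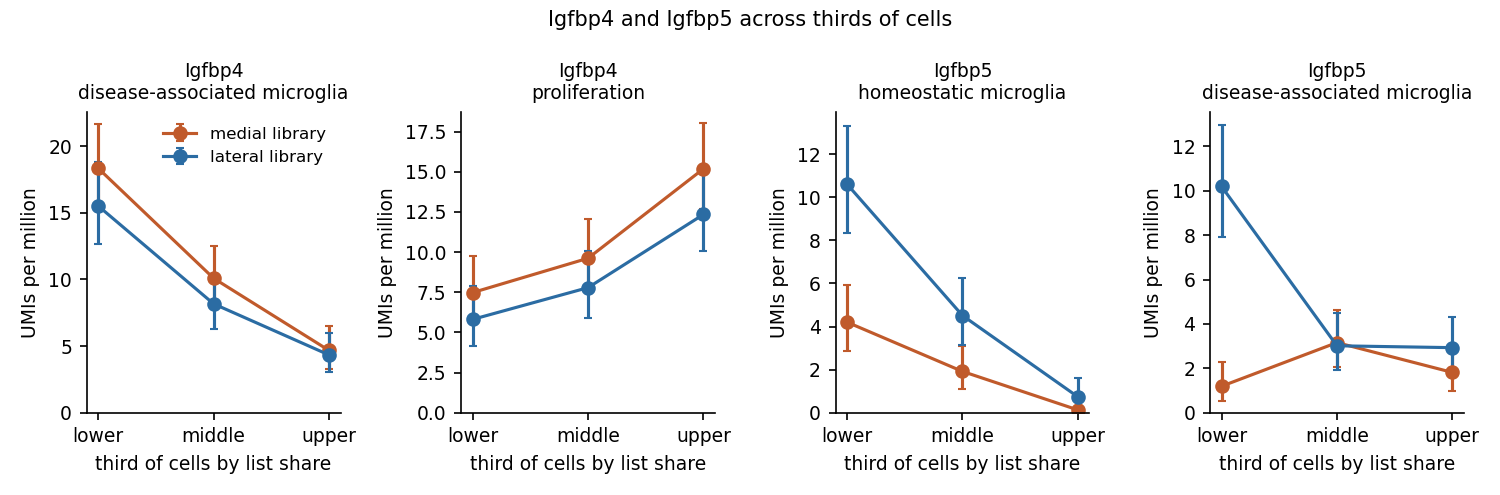
Igfbp4 and Igfbp5 levels (CPM, with exact 95% Poisson intervals) in the lower, middle and upper range of all cells by the share of UMIs in a gene list, for each library. Igfbp4 is lower with more disease-associated UMIs and higher with more proliferation UMIs in both libraries, and Igfbp5 is lower with more homeostatic UMIs in both. Over the disease-associated list with Apoe included, the libraries differ in Igfbp5 mainly in the lower range.

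Igfbp5 (ENSMUSG00000026185, chromosome 1, 72857932 to 72874884, minus strand), a binding protein that also attaches to extracellular matrix, was scarce and was higher in the lateral library. It had 49 UMIs in 28 medial cells (1.31%) and 116 UMIs in 55 lateral cells (2.38%). The level was 2.09 CPM (1.55 to 2.76) and 5.03 CPM (4.16 to 6.04), without overlap. The log2 ratio was -1.27 (-1.78 to -0.77), a lateral level 2.41-fold higher (1.71 to 3.44). Past a fold of 2 toward the lateral library were 2 of the 9843 genes measured, or 0.0203%, and Igfbp5 was one of them. The free level was 1.60 CPM medial and 2.40 CPM lateral, so cells had 1.31 times the free level (0.590 to 3.43) and 2.10 times (1.10 to 4.49). At 116 UMIs in the lateral library this is a difference between few molecules in few cells.

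A handful of cells held much of the Igfbp5. The 5 medial cells with most had 7, 5, 5, 3 and 3 UMIs, and the 5 lateral cells with most had 17, 12, 9, 5 and 5. The 5 medial and 9 lateral cells with at least 3 UMIs held 46.9% and 53.4% of all Igfbp5. Without them 26 medial and 54 lateral UMIs remained, a lateral level 2.12-fold higher (1.30 to 3.52). The share of cells with a UMI was 1.81-fold higher in the lateral library (1.13 to 2.97), and thinned cells gave 1.98-fold (1.08 to 3.77). Cells holding proliferation transcripts were also left out at full depth, where more cells meet that rule than after thinning. This kept 1073 of 2131 medial and 1197 of 2308 lateral cells, with 10 and 41 UMIs, a 4.10-fold difference (2.02 to 9.18). Without the upper range of immediate early UMIs, thinned cells kept 16 and 25 UMIs, a 1.28-fold difference (0.655 to 2.56) whose interval includes 1.

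Igfbp5 was found where homeostatic genes were low. Medial cells had 32, 16 and 1 UMIs from the lower to the upper homeostatic range (4.20, 1.92 and 0.133 CPM), and lateral cells had 74, 36 and 6 (10.6, 4.51 and 0.741 CPM). The lower range was 14.3-fold above the upper in the lateral library (6.27 to 40.2). That interval treats UMIs as independent, while a few cells held many of them. In thinned cells, divided by list UMIs, 1.31%, 0.607% and 0.153% of medial cells had an Igfbp5 UMI from the lower to the upper range. The lateral shares were 1.94%, 0.596% and 0.439%. Disease-associated ranges gave no common order, with 1.196, 3.16 and 1.82 CPM in medial cells and 10.2, 3.02 and 2.93 CPM in lateral cells. The medial shortfall was mainly in the lower of these ranges, with 9 UMIs against 67. In the lower range of thinned cells 0.595% of medial and 1.72% of lateral cells had an Igfbp5 UMI. With Apoe left out of the list, the ranges held 6, 14 and 29 UMIs in medial cells and 43, 36 and 37 in lateral cells. The shortfall then reached the middle range. Over the immediate early list lateral cells had 68, 19 and 29 UMIs and medial cells 26, 18 and 5.

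Cells with Igfbp5 had more Igf1 than others. Cells with at least 1 Igfbp5 UMI had 870 CPM of Igf1 in medial and 885 CPM in lateral cells, and were deeper than most, at a median of 14464 and 13162 UMIs. At the thinned depth 14 medial and 21 lateral cells had an Igfbp5 UMI, and their fold over other cells was 2.38 (1.80 to 3.10) and 1.65 (1.29 to 2.08). These intervals do not cover the spread of Igf1 between so few cells. Among the cells with at least 3 Igfbp5 UMIs, Igf1 stood at 1383 CPM in the 5 medial cells against 431 in the rest, and at 999.8 CPM in the 9 lateral cells against 534. In the medial cells Lgals3 was at 1087 against 311 CPM and P2ry12 at 220 against 413 CPM. The lateral cells had 833 against 327 CPM of Lgals3 and 151 CPM of P2ry12 against 455. Other homeostatic genes differed less. Csf1r was at 626 against 1030 CPM in the medial and 727 against 972 CPM in the lateral cells. Tmem119 was at 395 against 523 CPM, a fold whose interval includes 1 (0.53 to 1.05), and at 295 against 513 CPM. Cx3cr1 was at 362 against 362 CPM and at 295 against 365 CPM, with intervals of the fold that include 1 (0.69 to 1.41 and 0.57 to 1.11). Spp1 differed in direction, at 13204 against 4514 CPM in the medial and 4575 against 5401 CPM in the lateral cells. Apoe was lower in both, at 40983 against 47327 CPM and 24215 against 41276 CPM. All of these cells held Csf1r and Cx3cr1, and none held a UMI of the mural or fibroblast markers, types that can express Igfbp5. Markers of other cell types are not given for them, and whether any of them was a doublet was not tested.

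Counted over the wider IGF system, the 2 libraries were close. Of 94 listed genes, 93 had a row, 13 of these had no UMI in cells and 65 had at least 100 UMIs. Past a fold of 1.2 lay 5 toward the medial and 3 toward the lateral library, beside 7.42% and 7.49% of all genes, and the median log2 ratio was -0.01 against -0.04 over all genes. Without the 4 genes described above there were 61, with 4 medial and 1 lateral.

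**Figure D5:**
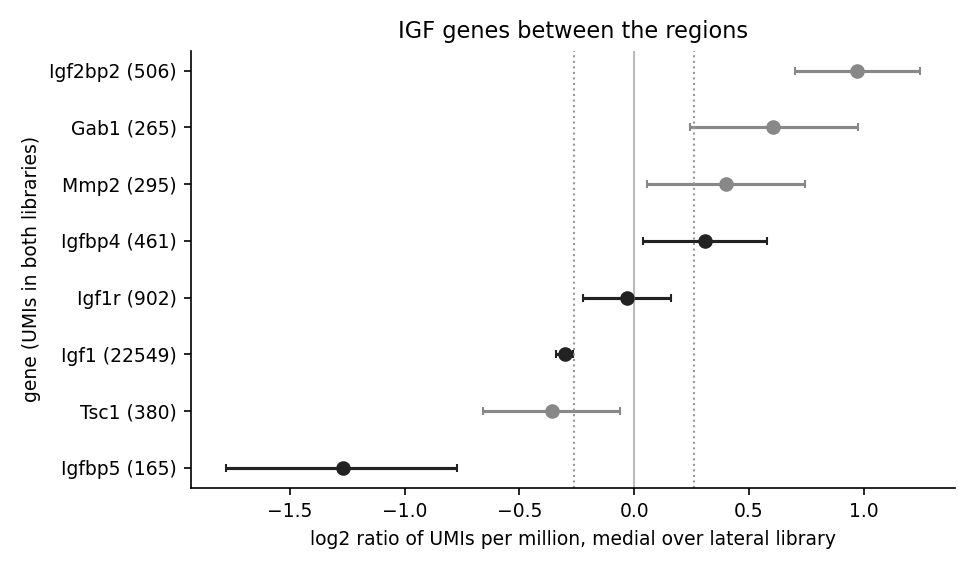
Log2 ratio of CPM, medial over lateral, with exact 95% intervals, for Igf1, Igf1r, Igfbp4 and Igfbp5 (black) and for 4 other measured genes of the IGF system past a fold of 1.2 (grey, dotted lines mark that fold). Igfbp5, Tsc1 and Igf1 lie on the lateral side, Igf1r lies near 0, and Igfbp4, Mmp2, Gab1 and Igf2bp2 lie on the medial side.

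Among ligands and receptors, Igf1 and Igf1r were the main ones seen. Igf2, Ins1 and Ins2 had no UMI in cells of either library, and neither had Insrr. The insulin receptor Insr stood at 5.16 and 5.73 CPM from 121 and 132 UMIs, and Igf2r, which clears IGF-2, had 45 and 54 UMIs. Of the other binding proteins only Igfbp6 passed 100 UMIs, at 5.33 and 5.81 CPM in cells and 5.93 and 5.28 CPM in free RNA. Igfbp1 and Igfals had none. Igfbp2 had 0 and 4 UMIs, Igfbp3 had 0 and 1, and Igfbp7 had 2 and 0. Igfbpl1 had 6 medial and 57 lateral UMIs, 50 of the latter in 2 cells that also held 34 of the library's 138 neuron marker UMIs and no Igf1. Without such cells it had 6 and 7.

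Of 14 proteases that cut binding proteins and their inhibitors, 4 were measured. The metalloproteinase inhibitor Timp2 stood at 1220 and 1214 CPM, the metalloproteinase Adam9 at 65.0 and 67.5 CPM, and the serine protease Htra3 at 47.1 and 46.3 CPM. Mmp2, a gelatinase, had 169 medial and 126 lateral UMIs, a log2 ratio of 0.40. Of 11 measured receptor adaptors 1 was past 1.2. This was the docking protein Gab1, with 161 and 104 UMIs and a log2 ratio of 0.61. Socs3, a feedback inhibitor of cytokine signalling that the immediate early list also holds, stood at 392 and 329 CPM, a log2 ratio of 0.25. The phosphatase Ptpn1 was at 219 and 217 CPM and the insulin receptor substrate Irs2 at 7.38 and 7.25 CPM, while Irs1, Irs4 and Grb10 had no UMI.

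All 27 genes of the PI3K-AKT-mTOR arm and all 9 of the MAPK arm were measured, and nearly all were level between the libraries. The mTOR activator Rheb stood at 199 and 203 CPM and the kinase Akt1 at 112 and 116 CPM. The mTOR inhibitor Tsc1 was past 1.2 toward the lateral library, at 7.17 and 9.20 CPM (log2 ratio -0.36). The kinases Map2k2, at 184 and 189 CPM, and Mapk3, at 171 and 180 CPM, led the MAPK arm, where 0 of 9 were past 1.2. In the list of the growth hormone axis and regulators of Igf1 transcription 8 were measured. That list also holds RNA-binding proteins of the Igf2bp family, which are neither. The transcription factor Cebpb stood at 1360 and 1312 CPM and the hypoxia factor Hif1a at 208 and 219 CPM. The growth hormone receptor Ghr had 5 and 2 UMIs. Igf2bp2, an RNA-binding protein, was the one past 1.2, with 337 medial and 169 lateral UMIs. Its level was 14.4 and 7.33 CPM, a log2 ratio of 0.97 (0.70 to 1.246), and in free RNA 17.6 and 11.0 CPM.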

How the data were processed

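Counts are UMIs per gene and barcode as deposited, made by the authors with Cell Ranger 2.0.1 and STAR on mm10, per the submitters' processing notes. No other setting is given in the sources used here, and the deposited matrices hold all 737280 barcodes per library, with and without cells. Cells held 81.8% of medial and 82.4% of lateral UMIs, and 3 barcodes of each library were left out for over 10% mitochondrial UMIs. No clustering was made and no doublet caller was run, so doublets remain. Leaving out the 5% of cells with most UMIs was an alternative. UMIs were summed per library, with exact Poisson (levels), conditional binomial (ratios) and Clopper-Pearson (shares) 95% intervals. Rows sharing a symbol were summed for 56 symbols. Thinning drew 3869 UMIs per cell without replacement (seed 20240) and left out 131 medial and 231 lateral cells. Free RNA is barcodes with 1 to 100 UMIs.

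The 4 genes and all gene lists were chosen with earlier results of these data known. Genes are named by rule: the 4 genes, the 10 most and 5 least like Igf1, the 5 most like Igf1r, in each role group the 2 with most UMIs and every measured gene past 1.2, and Itgax and Spp1. A gene that the rule names is not reported here. Genes at or near 0, Igf2r, Irs2, Socs3's list overlap, Igfbpl1 and Mbp were added after their values were seen. Ranges used list UMIs of thinned cells for Igf1 and Igf1r, and the list's share of UMIs in all cells for Igfbp4, Igfbp5 and Mbp. Shares of thinned cells with an Igfbp5 UMI used the ranges of thinned cells. Alternatives covered gene and cell minima, fold, equal cell weights, TMM scaling (edgeR 4.0.16 in R 4.3.3), 5 ranges in place of 3, and cells left out. The ratio and thinning code was tested on simulated data, and the likeness code was not. Python 3.11.15, numpy 2.4.6, scipy 1.17.1, pandas 2.3.3 and matplotlib 3.10.9 were used. Gene positions are those of the GRCm38 annotation.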

Additional observations from a re-analysis of the deposited data

Results flagged for a closer look

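In barcodes with 1 to 100 UMIs, which hold free RNA and no cell and enter none of the comparisons, 3 genes of the IGF system with under 100 UMIs in cells stood above their level there. More abundant genes were not screened in this way. Igfbp2 was at 1.14 CPM in the medial library (5 UMIs, 0.370 to 2.66) with 0 UMIs in cells, and at 4.08 CPM in the lateral library (17 UMIs, 2.38 to 6.53) with 0.174 CPM in cells. Igfbpl1 was at 4.33 CPM in the medial library (19 UMIs, 2.61 to 6.76), against 0.256 CPM in cells, and at 11.8 CPM in the lateral library (49 UMIs, 8.70 to 15.5), against 2.47 CPM in cells. The serine protease Htra1 was at 1.68 CPM in the lateral library (7 UMIs, 0.675 to 3.46), with 1 UMI in cells. The cells these transcripts came from were not tested.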

How the results depend on the processing

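Of 88 alternative values, 72 stayed within the counting interval of the reported value (counts within 1.5 times), 16 moved and 0 past the fold changed sign. That interval is wide for Igfbp4, which was no longer past 1.2 after thinning (0.15), with each cell counted alike (0.17) or without the upper range of immediate early UMIs (0.20). Over its alternatives the log2 ratio of medial over lateral ran from -0.33 to -0.18 for Igf1, -0.11 to 0.22 for Igf1r, 0.15 to 0.40 for Igfbp4 and -2.04 to -0.35 for Igfbp5. Without the upper range of immediate early UMIs, chosen after the data were seen, it was -0.18 for Igf1, 0.22 for Igf1r and -0.35 for Igfbp5. Without cells holding proliferation transcripts at full depth, which kept 1073 medial and 1197 lateral cells, it was -2.04 for Igfbp5. The causes were not tested. The lateral count of the IGF system went from 3 to 7 with at least 1 UMI in each library (15.1% of all genes), 6 with at least 30 UMIs (10.1%), 6 with each cell counted alike (10.0%) and 7 after thinning (14.3%). At a fold of 1.5 there were 2 medial and 1 lateral, beside 1.51% and 0.64% of all genes. Between the outer of 5 ranges of cells, Igf1 had a log2 ratio of 0.90 over the disease-associated list in medial cells, -1.48 and -1.13 over the homeostatic list in medial and lateral cells, and -0.84 over the immediate early list in medial cells. Without Apoe and unthinned, the disease-associated ratio was 1.09 medial and 0.65 lateral. Of the 10 genes most like Igf1, all 10 remained by Spearman correlation, at a minimum of 20% of cells and without proliferating cells, and 7 with unthinned cells. Igfbp5 is limited by depth, with 49 and 116 UMIs. No paired analysis was possible because each region has 1 library.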
